A study of Mus musculus with 32 samples.

Results

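DART-seq sites that lie in short internal exons of hippocampal neuron mRNAs are described here. A site was taken as a member when its edited C fell inside an internal exon of less than 200 bases on the same strand. Exons were the intervals that the authors counted for each gene, merged where they overlap, and internal means neither the first nor the last merged exon of the gene. Of 18231 site lines, 4915 (27.0%) met this rule, in 4327 exons of 2479 genes. The other sites lay in last exons (7144), long internal exons (4361), first exons (1071) or genes with a single merged exon (450), and 237 lay in no merged exon. A further 53 lines matched several genes and none could be chosen. Among the members, 84 lines matched several genes and were assigned by the symbol on the line, 38 matched 1 gene of another symbol, and 14 repeated a gene and position already listed, which leaves 4901 gene positions.

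Hippocampal neurons of newborn pups were grown for 15 days on porous membranes, so that soma and neurites could be scraped from opposite sides. WT neurons came from C57BL/6 animals and Mettl3 KO neurons from Mettl3Flox/Flox animals, and both received AAV with a Cre-P2A-dTomato cassette at DIV7 (50000 vg/cell). All cultures were silenced at DIV14 for 16 h with tetrodotoxin (1 µM) and D-AP5 (50 µM), and were then left without KCl (Ctrl) or given 55 mM KCl for 2 h. RNA-seq and DART-seq each covered 16 libraries, 2 in each of 8 groups (soma or neurite, WT or Mettl3 KO, Ctrl or KCl). Cre was driven by the synapsin promoter, so glia in the same cultures were not targeted. Pups of a litter were pooled. Duplicates came from distinct litters, and Ctrl and KCl neurons from the same litter. WT and Mettl3 KO neurons come from different mouse lines, so a difference between the lines and the loss of Mettl3 cannot be told apart.

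N6-methyladenosine (m6A) is the most common internal modification of mRNA and is written during transcription by a complex whose catalytic subunit is METTL3. In most mRNAs it is densest near the stop codon and in long exons. Exon junction complexes, which are deposited upstream of splice junctions, are known to keep the writer away from nearby sequence, so that short internal exons are usually poor in m6A. In DART-seq a fusion of the cytidine deaminase APOBEC1 and an m6A-binding YTH domain converts the C that follows an m6A to U, and the C2U rate of that C is the readout. A site's value is the C2U rate averaged by the authors over 8 WT libraries. No value per library and no read depth is given at a site, so differences between sites and exon classes below are descriptions without a test. The C had to follow a purine and an A (the RAC motif), and C2U had to be higher in WT than in Mettl3 KO libraries. The contrast between WT and KO editing was therefore used to choose sites and is not a result.

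Sequences show what the most edited members and some less edited ones look like. Each window runs 5′ to 3′ in DNA letters of GRCm38, holds up to 12 bases on either side of the edited C, ends at the exon edge where that is nearer, and has the RAC in capitals. The first 8 are the most edited members, and the next pair lies 5 bases apart in 1 exon of Calb1. The others come from exons that are very short or hold many sites. Apart from the Calb1 pair, only less edited sites of such exons are shown. Trim27 (8.53%, in a 23-base exon) and a Casc3 site at 24.7% are among those left out. The others shown lie below the member median of 3.68%, whereas the lowest member is at 0.227%.
Myo5a (chr9:75136405-75136429, plus strand, C2U 44.0%): aattggttttGACaagaggtacaga
Fam69a (chr5:107924588-107924612, minus strand, C2U 32.8%): cagagggaagGACtgtaagaaaatc
Map4k3 (chr17:80644525-80644549, minus strand, C2U 29.8%): tgtttctaatGACaaaaagcaattt
Fam49a (chr12:12362049-12362073, plus strand, C2U 28.8%): actatcgaagAACaataagtcgtaa
Ccar1 (chr10:62751786-62751810, minus strand, C2U 28.8%): tgaagaagatAACaatcaagatgag
Vcl (chr14:20985627-20985645, plus strand, C2U 28.6%): gaatGACtaagatggccaa
Kpna4 (chr3:69079475-69079499, minus strand, C2U 28.4%): gcaatttgctGACtgtaaaagatgc
Nol6 (chr4:41120755-41120779, minus strand, C2U 27.5%): ctaccgatctGACaatcaatggaat
Calb1, upstream site (chr4:15898898-15898922, plus strand, C2U 11.4%): agagaaagcaAACaagactgtggat
Calb1, downstream site (chr4:15898903-15898927, plus strand, C2U 8.01%): aagcaaacaaGACtgtggatgatac
Exosc9 (chr3:36563093-36563117, plus strand, C2U 1.89%): ggactcctggAACtgcccagattgg
Srcin1 (chr11:97542537-97542557, minus strand, C2U 2.67%): caaccaAACtactggagtttc
Trim35 (chr14:66307026-66307041, plus strand, C2U 0.937%): aAACacaagagccgaa
In every window shown, strongly or weakly edited, the base after the C is A or T. Less edited sites before another C, such as 2.74% in Casc3 and 3.17% in Exosc9, are not shown. The windows therefore cannot show a contrast in that base. All 18231 listed sites read RAC on the GRCm38 genome.

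Most members were edited at a few percent, about as strongly as sites in other exons of the coding body. Member C2U ran from 0.227% to 44.0%, with a median of 3.68% and quartiles of 2.10% and 6.09%. C2U was at least 10% at 430 members (8.75%) and at least 20% at 31, and it was under 2% at 1131 (23.0%). The median was 3.37% in long internal exons, 3.81% in last exons, 2.53% in first exons and 3.54% over all sites. Last exons held more strongly edited sites, with 11.5% of them at 10% C2U or more. The average was under 1% at 280 members. The lower limit of C2U in calling applied to each library, whereas the average covers all WT libraries, so it can lie under that limit.

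**Figure D1:**
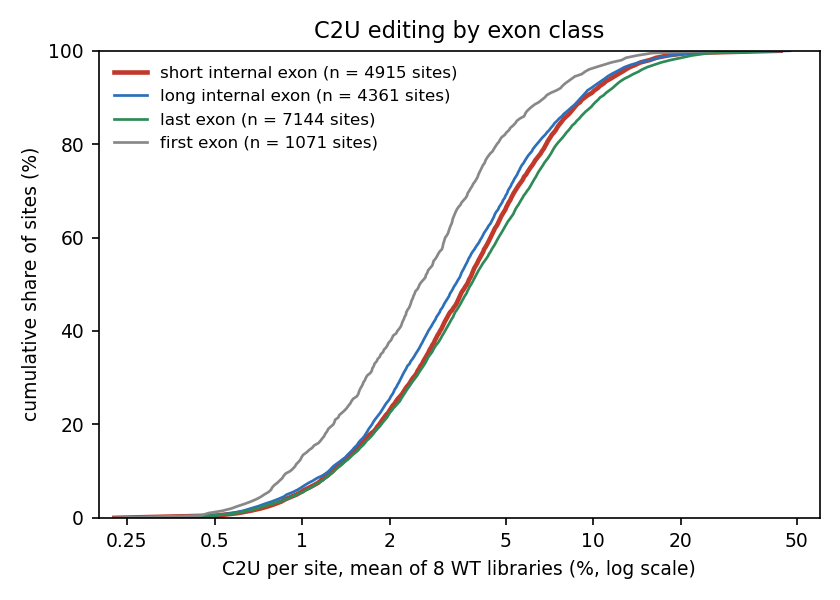
Cumulative share of DART-seq sites (vertical axis, %) against the C2U rate of a site averaged over 8 WT libraries (horizontal axis, %, log scale) in 4 exon classes. The curve of short internal exons (median 3.68%) runs between those of long internal exons (3.37%) and last exons (3.81%), and first exons (2.53%) lie to the left.

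Within genes the classes were close as well. Among 1075 genes with sites in both short and long internal exons, the gene's median C2U was higher in the short exons in 541 and lower in 534. Against last exons it was higher in 612 and lower in 694 of 1306 genes, with a median difference of -0.236 percentage points and quartiles of -2.29 and 1.70. Against first exons the short internal exons were higher in 189 and lower in 115 of 304 genes.

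The 12 most edited members lay in 12 genes, all in coding sequence. The highest, 44.0%, was in exon 6 of 42 merged exons of Myo5a, which encodes the myosin V motor that carries cargo along actin, at position 75136417 of chromosome 9. Its exon has 144 bases and the edited C lies 74 bases from the 5′ edge and 69 from the 3′ edge, so this site is in the middle of the exon. Myo5a holds 8 sites in all, of which 3 are members. Fam69a, which holds no other site, followed with 32.8% in exon 3 of 6, at 15 bases from the 3′ edge. In Map4k3, a kinase gene, C2U was 29.8% in a 63-base exon, 17 bases from its 5′ edge. Vcl, which encodes the adhesion protein vinculin, had 28.6% at 6 bases from the 5′ edge of a 123-base exon. High editing thus occurred both next to a splice junction and far from one.
The other 8 ran from 25.9% to 28.8%. They were in Fam49a, Ccar1 (28.8% each), Kpna4 (28.4%, a nuclear import receptor), Nol6 (27.5%, a nucleolar protein of ribosome assembly), Cadps (27.4%, a priming factor of dense-core vesicles), Snap91 (27.1%, the clathrin assembly protein AP180), Hsd17b4 (26.8%, a peroxisomal enzyme) and Cdc123 (25.9%, an assembly factor of the initiation factor eIF2).

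Sites per available RAC motif were compared next, over the merged exons of the genes that hold any site. Short internal exons hold 137150 RAC, 18.1% of the total, and 35.7 of every 1000 carried a site. The same density was 14.6 in long internal exons, 28.0 in last exons and 18.7 in first exons. Of 39888 short internal exons in these genes, 4327 (10.8%) held a site, 3817 of them only 1. Over every gene expressed at a mean of 10 counts or more, with or without a site, the density in short internal exons was 11.5 per 1000 RAC.
The gap to long internal exons was smaller within coding sequence. Counted only inside coding sequence of GENCODE M21, an alternative chosen after seeing the data, the density was 39.1 in short internal exons, 35.3 in long internal exons, 44.5 in last exons and 41.6 in first exons. By exon length, the density over all bases fell from 37.8 at 50 to 74 bases to 29.8 from 200 up to 300 bases and 8.46 at 1000 bases or more. In coding sequence it was 41.5, 38.2 and 29.1 in the same bins. In coding sequence the bins from 50 up to 600 bases lay between 36.9 and 41.5 per 1000 RAC with no step at 200 bases. Just inside the limit, 130 sites in exons up to 5 bases shorter had a median C2U of 3.71% (0.407% to 24.1%), and just outside it 133 sites in exons of 200 bases or up to 4 more had 3.40% (0.584% to 17.9%).

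**Figure D2:**
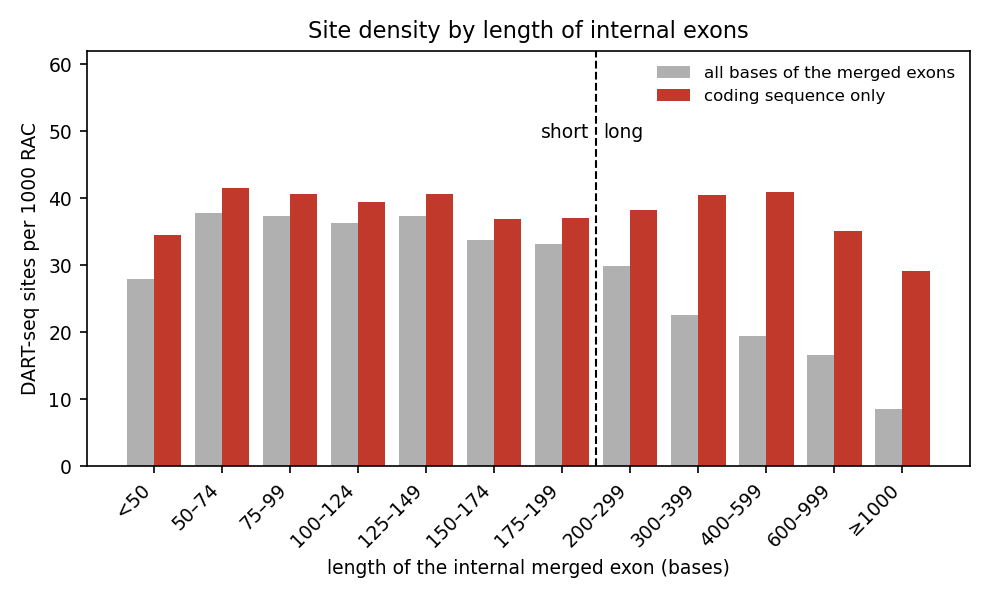
DART-seq sites per 1000 RAC motifs (vertical axis) against the length of the internal merged exon in bases (horizontal axis), over all exon bases (grey bars) and in annotated coding sequence only (red bars); the dashed line is the limit of 200 bases. Over all bases the density falls to 8.46 in exons of 1000 bases or more, whereas in coding sequence it is 29.1 there.

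The density also rose with the level of the host RNA, and C2U fell with it. Calling required at least 50 reads at the C, so more of the motifs of an abundant RNA could pass. Host level is given as FPKM, the WT mean over 8 RNA-seq libraries computed here per exon length. From the lowest to the highest quartile of genes by FPKM, short internal exons had 20.05, 31.3, 46.2 and 56.0 sites per 1000 RAC. Long internal exons rose from 8.23 to 26.9 and last exons from 15.8 to 46.6 over the same quartiles. When all sites were split into quartiles by host FPKM, the median C2U of members was 4.46%, 3.87%, 3.72% and 2.62%. The part that the read minimum plays in either trend was not tested.

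Along the exon, member sites followed the RAC motifs. The edited C lay a median of 29 bases from the nearest exon edge (quartiles 15 and 46), and so did all RAC in short internal exons (median 29, quartiles 14 and 47). Of the sites, 42.1% were within 25 bases of an edge, against 42.4% of all RAC. By distance from the 5′ edge the density was lowest in the first 5 bases, at 29.9 per 1000 RAC, and ran from 32.7 to 39.6 in the other bins. RAC was read on the genome, so for a C at the very start of an exon part of the motif is intron sequence. Such motifs need not exist in spliced mRNA, and their part in the low first bin was not tested. By distance from the 3′ edge it ran from 33.4 to 40.1, with 34.6 in the last 5 bases. Median C2U ranged from 3.41% to 4.09% over bins from the 5′ edge and from 3.44% to 4.19% over bins from the 3′ edge, with no trend along the exon.

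**Figure D3:**
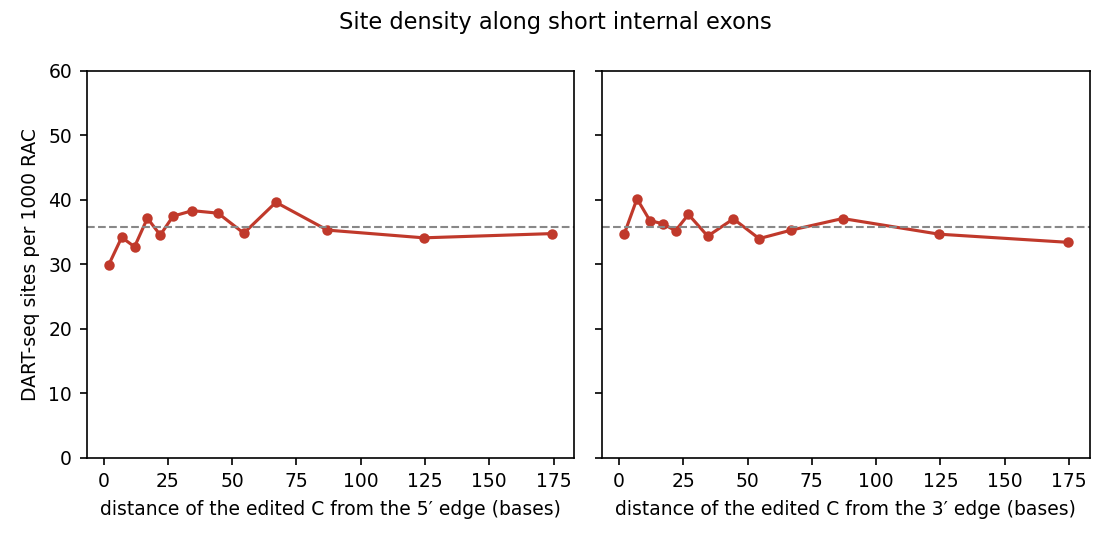
DART-seq sites per 1000 RAC (vertical axis) against the distance in bases of the edited C from the 5′ edge (left) and the 3′ edge (right) of short internal exons; points are bins and the dashed line is the mean of the class, 35.7. The points stay between 29.9 and 40.1, with the lowest in the first 5 bases after the 5′ edge, where some RAC motifs are partly intron sequence.

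The members nearest to an edge, with the edited C as the last base of the exon, were in Ssr1 (5.94%), Fnbp1 (2.90%) and Sorcs2 (2.40%). In these 3 the base after the C, read here from the genome, is the first base of the intron and not the base that follows in spliced mRNA. The shortest exons with a member were 23 bases in Trim27 (8.53%) and Trim35 (0.937%) and 24 bases in Srcin1 (2.67%), all coding.

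Density varied more along the transcript than along the exon. In the penultimate merged exon the density was 46.6 per 1000 RAC, in the third from last 47.7, and in the 11th or more from last 26.5. Median C2U ran the other way, from 3.37% in the penultimate exon to 3.93% in the 11th or more from last. Only genes with many exons hold exons so far from the last. The parts of host gene, host level and read depth in these trends were not tested. Of the members, 4829 (98.3%) were in coding sequence of at least 1 transcript, 68 in a 5′UTR, 6 in a 3′UTR and 12 in noncoding transcripts. In 773 (15.7%) the exon is first or last in at least 1 annotated transcript, and their median C2U was 3.49% against 3.72% in the 4142 that are internal in every transcript that holds them.

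The local sequence went with the editing rate more than with the presence of a site. Of the members, 70.3% were in DRACH, the longer consensus with any base but C before the RAC and any base but G after it, against 71.3% of all RAC in these exons. DRACH and other members had a median C2U of 3.72% and 3.601%. GAC made up 54.5% of members and 54.7% of RAC. The base after the C split the members further: the median C2U was 4.49% before U, 4.33% before A, 3.69% before G and 2.51% before C. Density had another order, 40.6 per 1000 RAC before G, 38.3 before C, 33.7 before A and 33.5 before U. Long internal and last exons also had their lowest median C2U before C, at 2.28% and 2.698%.
The bases further downstream moved with C2U as well. Over 4041 members with 10 exon bases on both sides of the RAC, the share of A or U in the 10 bases after the C was 42.3% in the lowest 405 by C2U and 58.3% in the highest 404, against 49.8% around all RAC. In the 10 bases before the RAC it was 45.01% and 54.2%. Median C2U was 2.28% with 2 A or U among the 10 bases after the C (146 sites), 3.75% with 5 (1159 sites) and 7.64% with 8 (88 sites), and density was 36.8, 39.8 and 21.4 per 1000 RAC at the same counts. APOBEC1 is known to favour A and U around its targets. The preference of the enzyme and the degree of methylation cannot be told apart in these values.

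**Figure D4:**
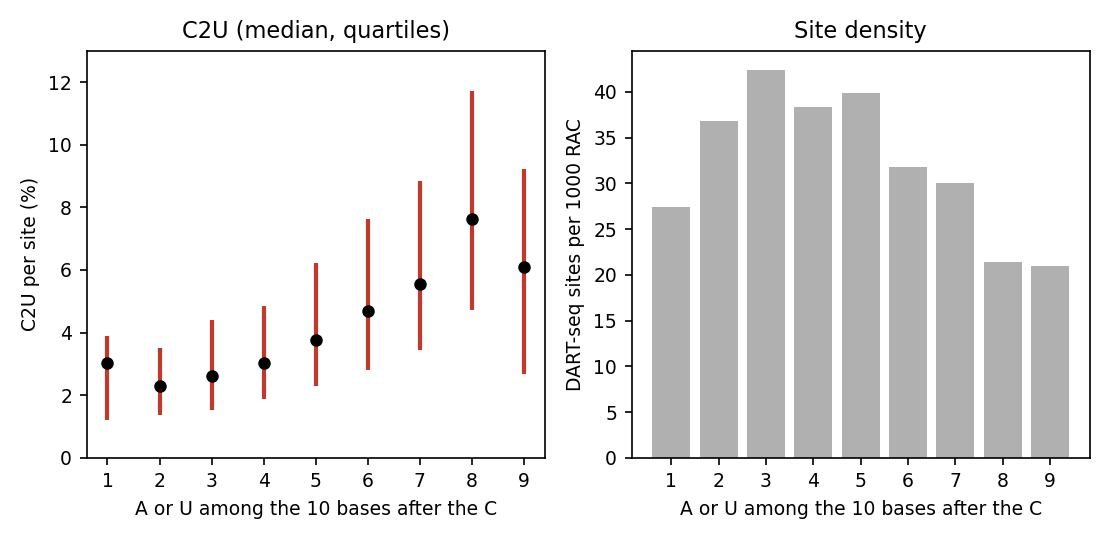
Members by the number of A or U among the 10 bases after the edited C (horizontal axes); left, C2U per site in % (points are medians, lines run between quartiles), and right, DART-seq sites per 1000 RAC; counts with fewer than 15 sites are left out. Median C2U is 2.28% at 2 and 7.64% at 8, and density is 36.8 and 21.4.

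The reading frame did not set members apart. The edited C was the third base of a codon at 54.6% of the members with a frame and at 53.8% of RAC in frame. It was the first base at 20.2% and 21.03%, with median C2U between 3.57% and 3.85% over the 3 positions.

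Some exons held more than 1 site, and whether this exceeds what their motifs and host level would give was not tested. Of the exons with a member, 454 held 2 sites, 49 held 3, 6 held 4 and 1 held 5. Neighbouring sites of 1 exon lay a median of 32 bases apart over 574 pairs, and in 266 pairs (46.3%) the higher C2U was at least 2 times the lower. The exon with 5 was exon 8 of 9 in Exosc9, a subunit of the RNA exosome, with C2U of 3.17%, 4.18%, 1.89%, 6.69% and 2.43% in 5′ to 3′ order, in an exon 1 base under the limit. Exon 7 of Casc3, which encodes a core subunit of the exon junction complex, held 4 sites in 177 bases. From 5′ to 3′ they had 2.71%, 7.27%, 24.7% and 2.74%, so a site at 24.7% lay 7 bases before one at 2.74%. The base after the C is A at the former and C at the latter. These exons of Exosc9 and Casc3 are first or last in at least 1 annotated transcript. Exon 5 of Calb1, a calcium-binding protein of interneurons and granule cells, held 4 sites in 78 bases, with 5.76%, 5.95%, 11.4% and 8.01%.

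Of the 2479 host genes, 1330 had 1 member, 168 had 5 or more and 628 had no site elsewhere. Reln, chosen after its values were seen, had the most. It encodes the secreted protein reelin and has 30 members in 21 of its 39 short internal exons, among 54 sites in all, with C2U from 1.09% to 16.3% (median 5.14%). That is 185 members per 1000 RAC of its short internal exons, at a host level of only 5.24 FPKM. Mcf2l followed with 14 (0.980% to 8.06%, 37.0 FPKM), and Kif1a, a motor of synaptic vesicle precursors, had 13 (0.930% to 5.92%, 238 FPKM). The count of members in a gene thus did not follow its level across these 3.

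Genes grouped by function differed in how many carried a member. Of all genes expressed at a mean of 10 counts or more, 10.5% did. The share was 45.8% for exon junction complex and nonsense-mediated decay factors (11 of 24 genes, 21 members), 42.3% for translation initiation and elongation (33 of 78), 35.5% for synaptic scaffolds and vesicle proteins (39 of 110) and 27.7% for kinases of neuronal signalling (41 of 148). Splicing factors (38 of 141), chromatin regulators (37 of 139) and microtubule motors and cytoskeleton (39 of 150) lay between 26.0% and 27.0%. The ubiquitin system had 20.5% (55 of 268), ion channels and neurotransmitter receptors 10.4% (25 of 240) and zinc finger proteins 3.74% (18 of 481). A gene share does not separate having any site from having it in a short internal exon. Of the sites in all these expressed genes, 27.4% were members. By list that share was 42% (exon junction complex), 39.9% (chromatin), 38.0% (translation), 34.9% (cytoskeleton), 32.3% (kinases) and 29.7% (synaptic). Channels and receptors had 29%, splicing factors 27.5%, the ubiquitin system 24.7% and zinc finger proteins 16.9%. The parts of exon structure, host level and editing in these shares were not tested. Host genes had a median mean count of 3806, against 351 for all genes tested in untreated WT neurites against soma.
Median C2U of the members ran from 2.79% in translation factors to 4.75% in zinc finger proteins. In the exon junction complex list the highest site was the one in Casc3 (24.7%). Eif5b (14.4%) and Eif3l (10.5%) led the translation factors, and Gria2 (12.4%), an AMPA receptor subunit, and Kcnh2 (12.1%), a potassium channel, led the channels and receptors. Snap91 (27.1%) and Dlg2 (14.8%) led the synaptic genes, Usp4 (20.4%) and Usp15 (19.6%) the ubiquitin system, Rbm34 (17.3%) and Prpf8 (13.9%) the splicing factors, and Ank2 (18.4%) came after Myo5a in the cytoskeletal list. Smarca5 (14.3%) and Hdac3 (12.3%) led the chromatin regulators, and Zc3h14 (14.1%) and Zmiz2 (12.7%, in a 5′UTR) the zinc finger proteins. Prkcsh (13.4%), which the kinase list took by its symbol, encodes a subunit of glucosidase II and not a kinase. Of 21 writers, readers and erasers of m6A only Mettl16, an m6A methyltransferase, had a member, 1 site at 4.90%.

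RNAs whose listed sites are all members allow soma and neurites to be compared. The authors' editing score adds the average C2U over an RNA's sites, and 1 average is given per compartment, so there is no replicate and no test. The paper describes site averages in soma or neurites as pooled over Ctrl and KCl samples. The labels of the score averages per compartment name no genotype. Of 624 such RNAs the score was higher in neurites in 365 (58.5%) and higher in soma in 259. Their medians were 6.14% in neurites and 5.51% in soma. The share higher in neurites was 58.2% of 593 RNAs with sites only in long internal exons, 64.5% of 1314 with sites only in last exons, and 68.8% of all 5643 RNAs. These sets differ in sites per RNA. Among RNAs with 1 site it was 53.3% of 413 in short internal, 54.1% of 379 in long internal and 60.6% of 739 in last exons. In 41 of the 624 RNAs the neurite score was 0, and in 5 the soma score was 0. Among the 531 with both averages above 1%, neurites exceeded soma by 1.5-fold or more in 200 and soma exceeded neurites in 102. For an RNA with 1 listed site the WT score equalled the site value in 1251 of 1825 cases, so the score and the site value are not always the same average.

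**Figure D5:**
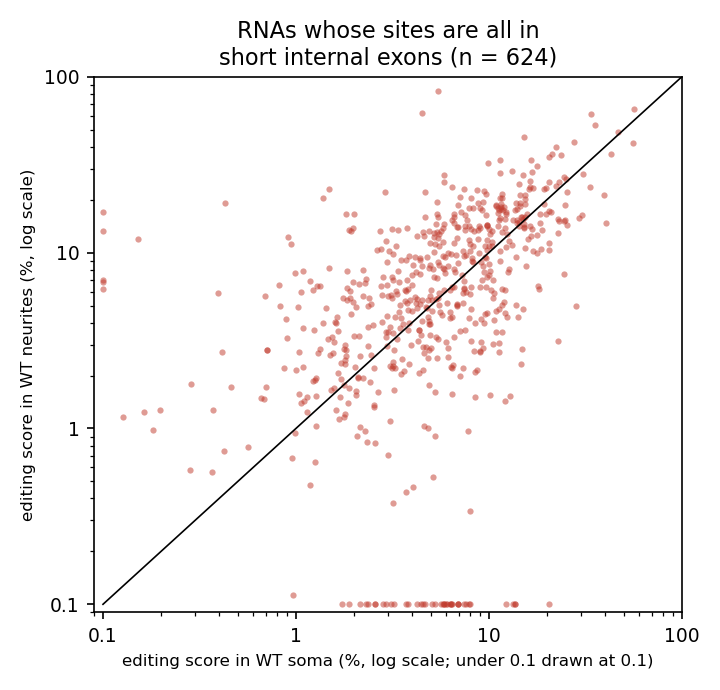
Editing score in neurites (vertical axis, %, log scale) against soma (horizontal axis, %, log scale) for 624 RNAs whose sites are all in short internal exons. The axes read WT, but the labels of these averages name no genotype. Each point is 1 RNA, the line marks equal scores, and scores under 0.1% are drawn at 0.1%. More points lie above the line (365) than below it (259), and 41 RNAs have a neurite score of 0.

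The highest WT scores among these RNAs were 60.3% in Prpf8, 50.2% in Exosc10, 47.4% in Snap91, 44.1% in Hsd17b4 and 44.0% in Taf1. Prpf8, which encodes the central scaffold of the spliceosome, reached its score with 12 sites of 0.876% to 13.9% in 8 exons, and scored 65.9% in neurites and 56.8% in soma. Exosc10, the nuclear catalytic subunit of the exosome, scored 42.3% in neurites and 55.7% in soma from 3 sites, at 13.3%, 22.4% and 9.31%. Snap91 was nearly even at 48.3% and 46.7%, with 27.1% at 1 of its 4 sites. Taf1, the largest subunit of TFIID, scored 61.4% in neurites and 33.9% in soma.
Among the RNAs with both averages above 1%, the largest ratios toward neurites were in Kcnh2 (22.9% in neurites, 1.49% in soma, 1 site), Plac9b (83.3% and 5.45%, 2 sites) and Ext1 (20.4% and 1.38%, 1 site). Plac9b has a near-identical paralog, Plac9a, and lay between 0.0902 and 0.703 CPM in the 8 WT libraries, so its score is uncertain. Toward soma, within the same 531 RNAs, they were in Iars2 (12.1% in soma, 1.43% in neurites), Kdm4a (12.9% and 1.54%) and Rpap3 (22.9% and 3.14%). Some RNAs with an average nearer to 0 had larger ratios, and none of these ratios has a replicate check.

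Host genes were then followed in the RNA-seq counts, which did not enter the rule. Library totals ran from 33789183 to 71394235 counts. CPM below are counts scaled to library size by TMM. Intervals from PCR reads without molecular identifiers would cover counting error only. Replicate WT libraries correlated at a Spearman rho of 0.985 to 0.997 across genes. In Mettl3 KO the 2 untreated soma libraries correlated at 0.888 and the 2 KCl-treated neurite libraries at 0.800. Untreated KO soma replicate 2 and both libraries of KCl-treated KO insert 1 stood apart from the rest. Summed neuronal markers (8 genes) were 3281 to 4790 CPM in WT libraries and 715 to 3652 in KO libraries, and astrocyte markers (4 genes) 703 to 2318 and 1306 to 17010. Oligodendrocyte lineage markers (4 genes) were at 2905 and 6344 CPM in the soma and neurites of KCl-treated KO insert 1 and at 30.6 to 94.4 in the other libraries. No listed marker of neurons, glia, microglia or vessels was at 0 in any group, so the cultures hold other cells besides neurons, and in bulk samples fewer cells of a type and less RNA per cell cannot be told apart.

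In WT cultures without KCl, host genes were called in neurites against soma about as often as other genes. With the 8 WT libraries in edgeR, at 1.5-fold and an adjusted p (Benjamini-Hochberg) not above 0.05, 239 of 2456 host genes tested were higher in neurites (9.73%, against 9.01% of all genes tested) and 104 were lower (4.23%, against 4.54%). The median log2 change was -0.11 for host genes and -0.10 for all genes. Of the 614 tested whose sites are all members, 32 were higher (5.21%) and 37 lower (6.03%). Of 3066 genes with sites only in other exons, 365 were higher (11.9%) and 136 lower (4.44%). With all 16 libraries in 1 fit, 0 host genes passed, and leaving out 1 of the 4 libraries gave 172 (without WT soma Ctrl replicate 2) to 412 calls in place of 343, with 226 without WT neurite Ctrl replicate 2. Where such a fit leaves a group with 1 library, that library is assumed to vary like those of the other groups. The counts of these alternative fits were not compared with those over all genes, so their shifts are not a result about host genes.
Astrocyte markers were at 703 to 716 CPM in these soma libraries and at 1487 to 2318 in these neurite libraries, and their part in the host calls was not tested.
The largest rises in neurites were in genes of signalling and synapses. Ppp1r16b, a regulatory subunit of protein phosphatase 1, was at 118 and 86.9 CPM in soma and 469 and 629 in neurites (log2 change 2.33, SE 0.19, adjusted p = 0.000114), with 1 member at 7.92%. Camk2a, the alpha subunit of calcium/calmodulin-dependent kinase II, was at 1447 and 1669 CPM in soma and 6130 and 7723 in neurites (2.06, SE 0.14), with 1 member at 0.966%. Shank1, a postsynaptic scaffold, was at 49.2 and 40.8 CPM in soma and 184 and 212 in neurites (2.04, SE 0.22), with 4 members of 1.09% to 8.86%. In each of these the neurite libraries lay above the soma libraries, but they were picked from genes called in the same libraries, so this adds no support.
The largest falls were in genes of low count. Tac2, the precursor of neurokinin B, was at 6.81 and 7.66 CPM in soma and 2.85 and 1.23 in neurites (-1.88, SE 0.32), with members at 2.82% and 4.73%. Ccdc153 was at 2.63 and 2.84 CPM against 1.31 and 1.05 (-1.29, SE 0.28), and Blnk, an adaptor of B cell signalling, at 10.95 and 12.5 against 4.87 and 6.20 (-1.19, SE 0.22). The member in Blnk was edited at 17.9%. Ccdc153 missed the limit without WT neurite Ctrl replicate 2 (edgeR adjusted p = 0.0567) or without either WT soma Ctrl replicate (0.0675 and 0.108), and Blnk without WT soma Ctrl replicate 2 (0.0785).
By function, 10 of 39 synaptic host genes (25.6%), 4 of 18 zinc finger ones (22.2%) and 8 of 39 motor and cytoskeletal ones (20.5%) were higher in neurites. The 10 were Dlg2, Dlg4, Dlgap3, Erc1, Ppfia3, Ppfia4, Rims1, Rims4, Shank1 and Shank3, and the 8 included Ank2, Cep170b, Kif1a, Kif5a, Kif5b, Kif5c and Map2. Sv2b and Synpr, both of synaptic vesicles, were lower. Among splicing factors 3 of 37 were higher and 4 lower, among translation factors 2 of 33 were higher, and of the exon junction complex list 1 of 11, Ncbp1, was lower. Kinases had 5 of 41 higher and 1 lower, and channels and receptors 3 of 25 higher and 2 lower. The ubiquitin system had 5 of 55 higher and 2 lower, chromatin regulators 2 of 37 higher and 1 lower, and zinc finger proteins 1 lower. Median log2 changes of the lists lay between -0.26 (splicing factors) and 0.20 (motors and cytoskeleton).

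KCl raised RNA of well-known activity genes among the hosts. In WT soma, at 2-fold and an edgeR adjusted p of at most 0.05, 64 of 2460 host genes rose (2.60%, against 3.74% of all genes tested) and 12 fell (0.488%, against 2.96%). The transcription factors Npas4, Nr4a1 and Nr4a2, early response genes, rose most. Npas4 was at 5.02 and 4.72 CPM without KCl and at 866 and 1650 with it (log2 change 7.94, SE 0.33, adjusted p = 1.37e-07). Nr4a1 went from 4.46 and 4.18 CPM to 828 and 948 (7.61, SE 0.18), and Nr4a2 from 5.13 and 5.21 to 728 and 913 (7.24, SE 0.21). Each has 1 member, edited at 1.75% in Npas4, 4.77% in Nr4a1 and 2.36% in Nr4a2, as an average over WT libraries with and without KCl.
Vcl, host of 1 of the most edited members, rose from 5.54 and 5.77 CPM to 29.7 and 30.4 (2.33, adjusted p = 1.87e-06). The largest falls were in Hcn2, a channel of the hyperpolarization-activated current (17.0 and 9.41 CPM against 3.97 and 5.63, log2 change -1.53, SE 0.26), Rhbdl1 (5.50 and 4.43 against 1.56 and 2.59, -1.32, SE 0.24) and Vps37d (7.34 and 5.10 against 2.35 and 2.94, -1.31, SE 0.24). In all 3 the libraries of the groups did not overlap, but they were picked from genes called in the same libraries, so this adds no support. Without WT soma Ctrl replicate 1 the falls of Rhbdl1 and Vps37d missed the limit (edgeR adjusted p = 0.0809 and 0.103) and that of Hcn2 was under 2-fold, as was that of Rhbdl1 without WT soma KCl replicate 1. Chd2 and Kdm6b among chromatin regulators and Usp2, Usp36, Usp38 and Rnf217 in the ubiquitin system also rose. No host gene of the translation, kinase or exon junction complex lists was called. With all 16 libraries 42 host genes rose and 0 fell. Without WT soma KCl replicate 2, which leaves that group 1 library, the number called rose. These counts were not compared with those over all genes, so their shifts are not a result about host genes.

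Mettl3 itself was lower in each KO group than in the WT group of the same compartment and treatment. It was at 16.7 and 16.2 CPM in untreated WT soma and 8.94 and 10.98 in KO soma, and at 12.01 and 12.5 in untreated WT neurites and 3.91 and 6.76 in KO neurites. The change in untreated soma was -0.73 on the log2 scale (SE 0.39) and did not pass in edgeR (adjusted p = 0.624). Cre removes exon 4, whereas the counts cover the whole gene, so they are no direct check of the deletion.

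Few host genes could be called in Mettl3 KO against WT soma without KCl. With 16 libraries in edgeR, 0 of 2458 host genes tested were higher (against 0.0632% of all genes tested) and 2 were lower (0.0814%, against 0.122%). At an unadjusted p of at most 0.05, 116 were higher and 80 lower, against 4.29% and 4.28% of all genes tested, and DESeq2 called 17 higher and 15 lower at an adjusted p, among 188 and 225 of all 23750 genes tested. The median log2 change was 0.03 for host genes and 0.02 for all genes tested. The count rested on single libraries: without KO soma Ctrl replicate 1, which leaves the replicate that stood apart, it was 277 (139 higher and 138 lower, among 629 and 2076 of all 23862 genes tested), and without replicate 2 it was 2. Without either WT soma Ctrl replicate it was 1. With KCl-treated KO insert 1 left out the count rose, and with KO soma Ctrl replicate 2 left out as well it rose further. Both fits leave groups with 1 library, and the rise was not compared with that over all genes, so it is not a result about host genes.
Naa20, the catalytic subunit of an N-terminal acetyltransferase and 1 of the lower genes, was at 56.3 and 54.7 CPM in WT and 23.8 and 20.2 in KO (-1.34, SE 0.23, adjusted p = 0.0465), with 1 member at 4.26%. It passed narrowly: the edgeR adjusted p was 0.354 without WT soma Ctrl replicate 1, 0.331 without replicate 2, 0.160 without KO soma Ctrl replicate 2, 0.111 without a filter on low counts and 0.346 with only the 4 libraries of the comparison.

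The change in neurite enrichment in Mettl3 KO was not resolved for host genes. With 1 term per insert, 36 of 2456 host genes tested had a larger neurite-to-soma ratio in KO (1.47%, against 2.91% of all genes tested) and 11 a smaller one (0.448%, against 1.28%), at 1.5-fold and an unadjusted edgeR p of at most 0.05. With RLE scaling the split was 46 and 7. At an adjusted p 0 passed in edgeR and 0 in DESeq2, and at an unadjusted p DESeq2 called 67 and 2. Of the alternatives here and below, only that without KO Ctrl insert 1 is given beside counts over all genes. The shifts in the others are not a result about host genes. Among the lists only Map2 and Kif5b of the cytoskeletal list, Sv2b of the synaptic list and Eif3k of the translation list met the unadjusted limit. When 1 insert was left out, the count in place of 47 was 9 without WT Ctrl insert 1, 3 without WT Ctrl insert 2, 639 without KO Ctrl insert 1 and 244 without KO Ctrl insert 2. The prevailing direction turned in the 639, of which 224 had a larger and 415 a smaller ratio in KO (3097 and 1837 over all genes tested), whereas the 244 were 194 and 50.
Values of the genes with the largest differences are given without a call. The log2 difference was 2.01 for Rps27l (SE 0.78), a ribosomal protein paralog, 1.95 for Pin4 (SE 0.71) and 1.67 for Hscb (SE 0.67), each at an adjusted p of 0.934. All 3 were low in untreated KO soma replicate 2, the library that stood apart: Rps27l was at 4.10 CPM there and at 44.6 in replicate 1, Pin4 at 1.04 and 5.09, and Hscb at 1.20 and 6.00. In the other direction it was -0.93 for Map2 (SE 0.38), the dendritic microtubule-associated protein, -0.91 for Fgf13 (SE 0.40) and -0.89 for Noc2l (SE 0.38). Map2, with 4 members of 1.84% to 6.01%, was at 448 and 464 CPM in WT soma, 1382 and 1849 in WT neurites, 361 and 269 in KO soma and 517 and 637 in KO neurites.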

How the data were processed

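The authors aligned reads with STAR to mm10 and counted them with featureCounts 2.0.1 against GRCm38 genes of Ensembl 97, and multi-mapping reads were included; the deposited counts are not normalized. DART-seq sites were called by the authors with Bullseye (at least 50 reads and 3 mutations, 1% to 95% C2U in the methods and from 2% in a supplementary description of the same step, 1.25-fold over each Mettl3 KO library and 1.5-fold over their average, at least 2 replicates, RAC motif). The deposited site value is a fraction, and the authors' editing score sums such averages per RNA. Their tables of comparisons (fold changes and p-values) were not used.

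The members, gene lists and tests were chosen with earlier results of these data known. Sites, motifs and annotation were read on GRCm38.p6 with GENCODE M21. All RAC in the merged exons of genes with a site gave the densities. Counts were fitted in edgeR 4.0.16 (TMM, quasi-likelihood, two-sided, Benjamini-Hochberg) on genes averaging 10 or more counts in the groups compared, without mitochondrially encoded genes. WT comparisons used the 8 WT libraries and the others 16. DESeq2 1.42.0 was an alternative, and the fits were tested on simulated data. Named were the 12 highest sites, 3 nearest an edge, 3 in the shortest exons, those of the 3 exons with most sites, 2 per list, 5 RNAs by WT score and 3 per direction by compartment ratio with both averages above 1%, and 3 host genes per direction among those called and averaging 100 or more counts. The sources state distinct litters but no litter per number, and only inserts were paired. Some named items are not reported here.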

Additional observations from a re-analysis of the deposited data

How the results depend on the processing

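The median C2U of 3.68% moved to 4.49% in RNAs with a single listed site. The median distance to an edge went from 29 to 25 bases with a limit of 150 bases, and the density went from 35.7 to 11.5 per 1000 RAC over every gene averaging 10 or more counts. In the other alternatives these values moved by 10% or less, and the number of sites stayed within 1.5 times 4915. Host genes called in WT neurites against soma went from 343 to 0 with 16 libraries (172 to 412 leaving out a replicate), and those called for KCl from 76 to 42 (74 to 147). For Mettl3 KO in soma the 2 calls became 32 in DESeq2, 0 with only the 4 libraries of the comparison, 34 with KCl-treated KO insert 1 left out and 130 with KO soma Ctrl replicate 2 left out too (1 to 277 leaving out a replicate). For the change in neurite enrichment the 47 calls became 117 without a filter on low counts, 3 with no replicate block, 0 at an adjusted p in edgeR or DESeq2, and 353 with KCl-treated KO insert 1 and untreated KO insert 2 left out (3 to 639 leaving out an insert). The cause was not tested, and most of these counts are given without those over all genes. The fits that leave out KO inserts, the crossed block, the adjusted p in DESeq2 and the density in coding sequence were chosen after seeing the data. With the replicate number as a block the other 3 comparisons gave 336, 74 and 3 calls, against 343, 76 and 2. The replicate differences of WT soma and neurites correlated at -0.142, and a block with crossed numbers gave 354 calls. That of untreated WT and KO soma was 0.165 and that of WT soma with and without KCl 0.0698. Named host genes reversed in no alternative, but 72 of their values lost the call against 168 that did not. With 16 libraries none of the genes named for WT neurites or for a fall with KCl passed, and Fgf13 and Noc2l passed in 2 and 1 of 13 alternatives. Site values carry no depth, which limits every comparison between sites.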
